A study of Mus musculus with 18 samples.

Results

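The mitosis and spindle genes are 32 genes whose products drive the entry into mitosis, build the spindle, hold chromosomes on it and split the cell. They were chosen by symbol from a list of mitotic genes, with earlier results of these data known. All 32 were found among the 43309 genes of the table and passed the filter on low values that left 21336 genes for testing. The cells were bone marrow-derived macrophages of C57BL/6 mice, made by culturing marrow for 7 days in 10% serum with 10 ng/ml M-CSF, the growth factor that macrophages need to survive and divide. For the last 18 h, cells of the M1 groups received 100 ng/ml LPS, a bacterial cell wall component, with 20 ng/ml IFNy (interferon gamma), and cells of the M2 groups received 20 ng/ml IL-4. The 3 genotypes were wild-type (WT), PGRN knockout (gene Grn, encoding the secreted lysosomal protein progranulin) and Myeloid 14-3-3e knockout (gene Ywhae, encoding an adaptor that binds phosphorylated proteins). Total RNA was sequenced, with 3 libraries in each of the 6 groups. The labels give neither an unstimulated group nor the driver of the myeloid deletion, and they do not say whether the 3 libraries of a group came from separate mice or cultures, so every p-value here reflects the spread among the deposited libraries alone, which may be technical.

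Dividing cells switch these genes on together in G2 and M phase and degrade many of the protein products at mitotic exit. Transcripts of the group are low in resting cells. The kinase CDK1 with cyclins A and B starts mitosis, PLK1 and the Aurora kinases mature the spindle, and the checkpoint proteins BUB1, BUBR1 (Bub1b) and TTK delay anaphase by restraining CDC20, the activator of the anaphase-promoting complex. Macrophages grown from marrow with M-CSF keep dividing during culture, and activation by LPS is known to stop their division. In bulk RNA, fewer dividing cells and less transcript in each dividing cell cannot be told apart.

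Promoters of this gene class are known for 2 short elements. The CHR (cell cycle genes homology region), here the letters TTTGAA or TTCGAA, is bound by MuvB complexes, which with other partners repress the genes in resting cells and with B-MYB and FOXM1 activate them in G2. The CCAAT box, here the letters CCAAT, is bound by NF-Y. RefSeq windows of 300 bases on GRCm38.p6, from 250 before to 50 after the transcription start, were used for 27 of the 32 genes. These were 29 windows, and both strands were searched. The CHR letters were in 82.8% of the 29 windows and in 19.2% of the 32851 windows of the whole table. CCAAT was in 79.3% against 37.4%, 2 or more CCAAT boxes were in 51.7% against 11.7%, and both motifs were in 72.4% against 7.53%. CHR letters within 50 bases of the start were in 75.9% of the windows of the mitotic genes and in 5.31% of all windows. Such a match describes letters, not a bound site. Aurkb, Ccna2, Foxm1, Kif20a and Tpx2 have no window here.

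Windows are printed below for the genes that mark the ends of the results: Ect2, with the largest M1 to M2 difference in WT (the first of its 2 windows; ENSMUSG00000027699, window chr3:27153805-27154104 on the minus strand), Ube2c, with the largest PGRN knockout difference (ENSMUSG00000001403, window chr2:164769679-164769978 on the plus strand), Ccnb2 and Cdk1, 2 canonical members (ENSMUSG00000032218, window chr9:70421505-70421804 on the minus strand, and ENSMUSG00000019942, window chr10:69352863-69353162 on the minus strand), and Birc5, whose window holds neither motif (ENSMUSG00000017716, window chr11:117848987-117849286 on the plus strand). Capitals mark the CHR letters and the CCAAT boxes on either strand, a CCAAT box of the opposite strand being read as ATTGG, and all are written 5′ to 3′ on the gene's strand.
Ect2: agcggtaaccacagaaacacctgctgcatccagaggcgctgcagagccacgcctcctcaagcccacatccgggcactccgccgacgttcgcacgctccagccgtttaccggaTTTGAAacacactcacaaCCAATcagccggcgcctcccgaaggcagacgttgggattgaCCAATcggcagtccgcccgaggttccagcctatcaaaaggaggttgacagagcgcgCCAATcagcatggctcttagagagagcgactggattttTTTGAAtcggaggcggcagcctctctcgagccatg
Ube2c: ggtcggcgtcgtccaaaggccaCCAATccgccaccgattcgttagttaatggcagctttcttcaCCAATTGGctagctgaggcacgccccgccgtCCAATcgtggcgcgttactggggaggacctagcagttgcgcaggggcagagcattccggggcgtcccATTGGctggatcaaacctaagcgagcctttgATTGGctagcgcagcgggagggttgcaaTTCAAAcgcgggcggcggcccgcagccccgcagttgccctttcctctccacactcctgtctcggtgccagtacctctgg
Ccnb2: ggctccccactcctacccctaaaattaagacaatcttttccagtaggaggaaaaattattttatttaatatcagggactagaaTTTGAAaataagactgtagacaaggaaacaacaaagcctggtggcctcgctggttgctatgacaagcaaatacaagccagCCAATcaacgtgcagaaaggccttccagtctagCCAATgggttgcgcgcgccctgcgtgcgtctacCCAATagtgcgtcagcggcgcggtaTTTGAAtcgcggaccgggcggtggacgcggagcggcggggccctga
Cdk1: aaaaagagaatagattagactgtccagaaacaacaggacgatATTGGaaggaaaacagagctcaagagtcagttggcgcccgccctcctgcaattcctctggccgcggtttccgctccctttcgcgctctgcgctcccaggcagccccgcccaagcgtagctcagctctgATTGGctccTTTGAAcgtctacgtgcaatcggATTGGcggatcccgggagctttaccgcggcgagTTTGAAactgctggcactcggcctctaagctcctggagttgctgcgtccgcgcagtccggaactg
Birc5: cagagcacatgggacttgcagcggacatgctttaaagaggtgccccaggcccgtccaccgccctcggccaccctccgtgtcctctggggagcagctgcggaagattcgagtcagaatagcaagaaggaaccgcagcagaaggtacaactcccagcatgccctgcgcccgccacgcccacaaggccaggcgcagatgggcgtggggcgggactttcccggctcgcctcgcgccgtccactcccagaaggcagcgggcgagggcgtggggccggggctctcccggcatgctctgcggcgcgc
Counting the first transcribed base as 1, the CHR letters of Ccnb2 begin at positions -167 and 5 and its CCAAT boxes at -87, -54 and -21. In Cdk1 they begin at -71 and -15, with CCAAT boxes at -208, -80 and -48. Ube2c has a single CHR at -29 and 6 CCAAT matches, of which those at -186 and -183 overlap on opposite strands in the stretch CCAATTGG. Ect2 has 3 CCAAT boxes and CHR letters at -138 and 16. Besides Birc5, the windows of Nuf2 and Nusap1 held neither motif.

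Depth ran from 5.16 to 105 M reads per library, a 20.4-fold range, and the lowest count of any of the 32 genes in any library was 11 reads, for Ect2. Grn was at 23.9 to 497 normalized counts in PGRN knockout libraries and at 29365 to 91739 in WT, and Ywhae was lower in the 14-3-3e knockout than in WT (log2 fold change -0.72 ± 0.08 SE in M1 and -0.85 ± 0.08 in M2). All 8 macrophage markers were detected in every group, among them Adgre1, Csf1r, Cd68 and Itgam, and the 4 markers of M1 (Nos2, Il12b, Il6 and Cxcl9) were higher and the 4 of M2 (Arg1, Retnla, Chil3 and Mrc1) lower in WT M1 than in WT M2. WT M1 replicate 2 and WT M2 replicate 3 were rich in ribosomal RNA-like reads (1.88% and 14.8%, against at most 0.232% in the other libraries). Collagen transcripts of stromal cells (Col1a1, Col1a2 and Col3a1) took 0.722 to 2.48% of reads, and their levels by genotype are given beside the genotype comparisons.

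In every genotype the summed mitotic transcripts were lower in M1 than in M2. The normalized counts of the 32 genes, summed in each library, were 12887, 10759.5 and 11335 for M1 and 33748, 36179 and 38421 for M2 cells of WT. The PGRN knockout had sums of 10806, 10680.0 and 9807 (M1) against 26193, 22858 and 21793 (M2). The 14-3-3e knockout had sums of 23516, 16651 and 12201 (M1) against 46746, 44619 and 42624 (M2). The M1 and M2 libraries did not overlap within any genotype, and the M2 means were 3.10, 2.26 and 2.56 times the M1 means in WT, PGRN knockout and 14-3-3e knockout. Within M2 the 3 genotypes also did not overlap: all 3 libraries of the 14-3-3e knockout were above, and all 3 of the PGRN knockout below, the WT libraries. Within M1, the 14-3-3e knockout libraries were spread most, and the lowest of them lay below WT replicate 1.

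**Figure D1:**
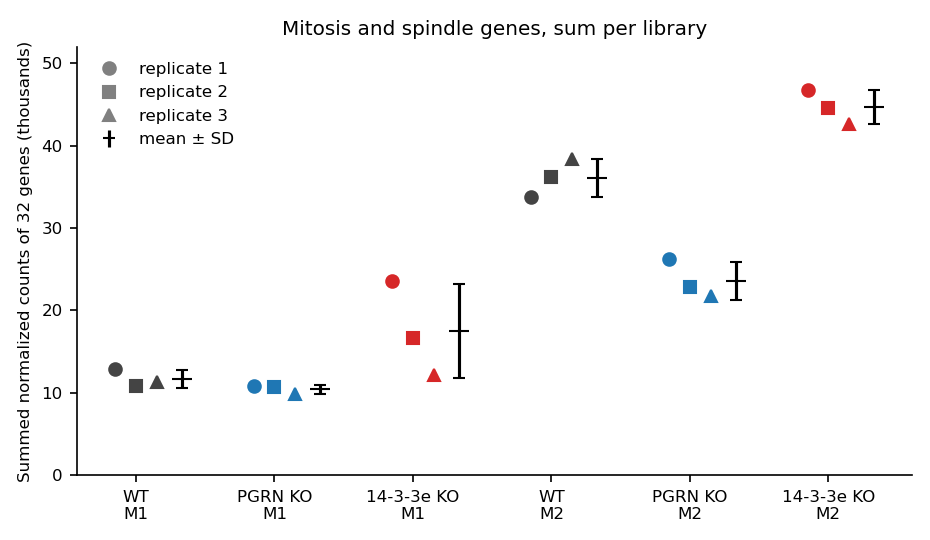
Summed normalized counts (y axis, in units of 1000) of the 32 mitosis and spindle genes in each of the 18 libraries, by group (x axis). Shapes mark the replicate and the black bars the mean ± SD of 3 libraries. M2 libraries lie above M1 libraries in each genotype, and the 14-3-3e knockout M1 libraries run from 12201 to 23516.

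Among the kinases, cyclins and FOXM1 (Cdk1, Ccna2, Ccnb1, Ccnb2, Plk1, Aurka and Foxm1), Cdk1 had the highest mean normalized count, a quantity that also depends on transcript length. For replicates 1, 2 and 3 in that order, its normalized counts were 936, 670.1 and 759 in M1 cells of WT, 663, 635 and 590.4 in those of the PGRN knockout and 1320.2, 883 and 708 in those of the 14-3-3e knockout. The M2 values were 1933, 1794 and 2037 (WT), 1188, 1063 and 1058 (PGRN knockout) and 1862, 1806 and 1720.1 (14-3-3e knockout). The M1 values were below the M2 values in each genotype, and the PGRN knockout M2 values were below those of both other genotypes. Among the checkpoint and anaphase genes (Bub1, Bub1b, Ttk, Cdc20 and Ube2c), Ube2c, which encodes the ubiquitin-conjugating enzyme that starts ubiquitin chains for the anaphase-promoting complex, had the highest mean count of its class. Its values were 767, 379 and 482 in M1 cells of WT, 299, 331 and 308 in those of the PGRN knockout and 837, 563 and 376 in those of the 14-3-3e knockout. In M2 the values were 1231, 1109.7 and 1267 (WT), 553, 513 and 474 (PGRN knockout) and 1192, 1156 and 1065 (14-3-3e knockout). WT M1 replicate 1 was the highest WT M1 library for Ube2c, and the PGRN knockout libraries were the lowest in both states.

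Among the kinetochore and centromere genes (Cenpa, Cenpe, Cenpf, Ndc80 and Nuf2), Cenpa, the histone H3 variant that marks centromeres, had the highest mean count. Its values were 339, 216 and 271 in M1 cells of WT, 203, 159 and 176 in those of the PGRN knockout and 414, 286 and 186 in those of the 14-3-3e knockout. M2 cells had 1028, 804 and 1007 (WT), 663, 643 and 636 (PGRN knockout) and 921, 874 and 847 (14-3-3e knockout). The 14-3-3e knockout and WT ranges overlapped in both states. Cenpf, a large kinetochore and nuclear matrix protein, was measured at 174, 164 and 140.2 in M1 cells of WT, 137, 144 and 155 in those of the PGRN knockout and 409.8, 272 and 164 in those of the 14-3-3e knockout. For M2 cells, the counts were 409.8, 536 and 464 (WT), 322, 329 and 245 (PGRN knockout) and 873, 681 and 737 (14-3-3e knockout). All 3 14-3-3e knockout M2 libraries were above the WT M2 libraries, and all 3 PGRN knockout M2 libraries below them.

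The chromosome structure and passenger complex genes were Top2a, Mki67, Aurkb and Birc5. Top2a, the topoisomerase that untangles sister chromatids, had the highest mean count of the class, with values of 1365, 1219 and 1161 in M1 cells of WT, 1123, 1250.0 and 1029 in those of the PGRN knockout and 2861, 1964 and 1419 in those of the 14-3-3e knockout. The M2 values were 3441, 3912 and 4241 (WT), 3044, 2635 and 2543 (PGRN knockout) and 5998, 5152 and 5064 (14-3-3e knockout). The 3 genotypes did not overlap in M2, in the order 14-3-3e knockout, WT and PGRN knockout from high to low. Mki67, the coat protein of mitotic chromosomes used as a division marker, was at 869.5, 601 and 783 in M1 cells of WT, 853, 767 and 716 in those of the PGRN knockout and 1391, 1034 and 814 in those of the 14-3-3e knockout. In M2 the values were 2833, 3832 and 3565 (WT), 3126, 2364 and 2399 (PGRN knockout) and 5418, 4873 and 4465 (14-3-3e knockout). The 14-3-3e knockout M2 libraries were above all others, while the WT and PGRN knockout ranges overlapped in both states.

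Aurkb and Birc5 encode the kinase and the survivin subunit of the chromosomal passenger complex, which corrects faulty spindle attachments. Aurkb was at 245, 213 and 229 in M1 cells of WT, 233, 234 and 219 in those of the PGRN knockout and 471, 307 and 259 in those of the 14-3-3e knockout. M2 cells had 828, 868 and 878 (WT), 617, 527 and 499.7 (PGRN knockout) and 1053, 1162 and 938 (14-3-3e knockout). WT and PGRN knockout overlapped in M1 and did not overlap in M2. Birc5 was at 691, 308 and 363 in M1 cells of WT, 266, 319 and 256 in those of the PGRN knockout and 632, 384 and 343 in those of the 14-3-3e knockout. For M2 cells, the counts were 1239, 969 and 1216 (WT), 579.9, 550.0 and 504 (PGRN knockout) and 999.8, 1138 and 1038 (14-3-3e knockout). WT M1 replicate 1, the shallowest library, was the highest M1 library for Birc5 in any genotype.

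Of the spindle motor and assembly genes (Tpx2, Kif11, Kif2c, Kif4 and Nusap1), Tpx2, which activates Aurora A and promotes spindle microtubule nucleation, had the highest mean count. Its values were 1191, 926 and 893 in M1 cells of WT, 1228, 1372 and 1070.1 in those of the PGRN knockout and 1470.0, 1160.3 and 989.5 in those of the 14-3-3e knockout. The M2 values were 1632, 1783 and 1888 (WT), 1361, 1130.0 and 1025 (PGRN knockout) and 2253, 1995 and 2013 (14-3-3e knockout). For PGRN knockout, unlike the other genotypes, the M1 and M2 ranges of Tpx2 overlapped. The midzone and cytokinesis genes were Prc1, Kif20a, Kif23, Ect2, Racgap1 and Anln. Racgap1, which with Kif23 forms centralspindlin, was at 424, 473 and 448 in M1 cells of WT, 479, 461 and 417 in those of the PGRN knockout and 963, 694 and 526 in those of the 14-3-3e knockout. In M2 the values were 1579, 1621 and 1727 (WT), 1152, 946 and 993 (PGRN knockout) and 1891, 1891 and 1819 (14-3-3e knockout). Ect2, the exchange factor that centralspindlin brings to the cell equator to activate RhoA, was at 49.1, 105 and 97.5 in M1 cells of WT, 94.1, 77.2 and 111 in those of the PGRN knockout and 263, 231 and 152 in those of the 14-3-3e knockout. M2 cells had 346, 482 and 498 (WT), 403, 333 and 299 (PGRN knockout) and 633, 644 and 622 (14-3-3e knockout). All 3 14-3-3e knockout libraries were above all WT and PGRN knockout libraries of the same state for Ect2 and for Racgap1.

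**Figure D2:**
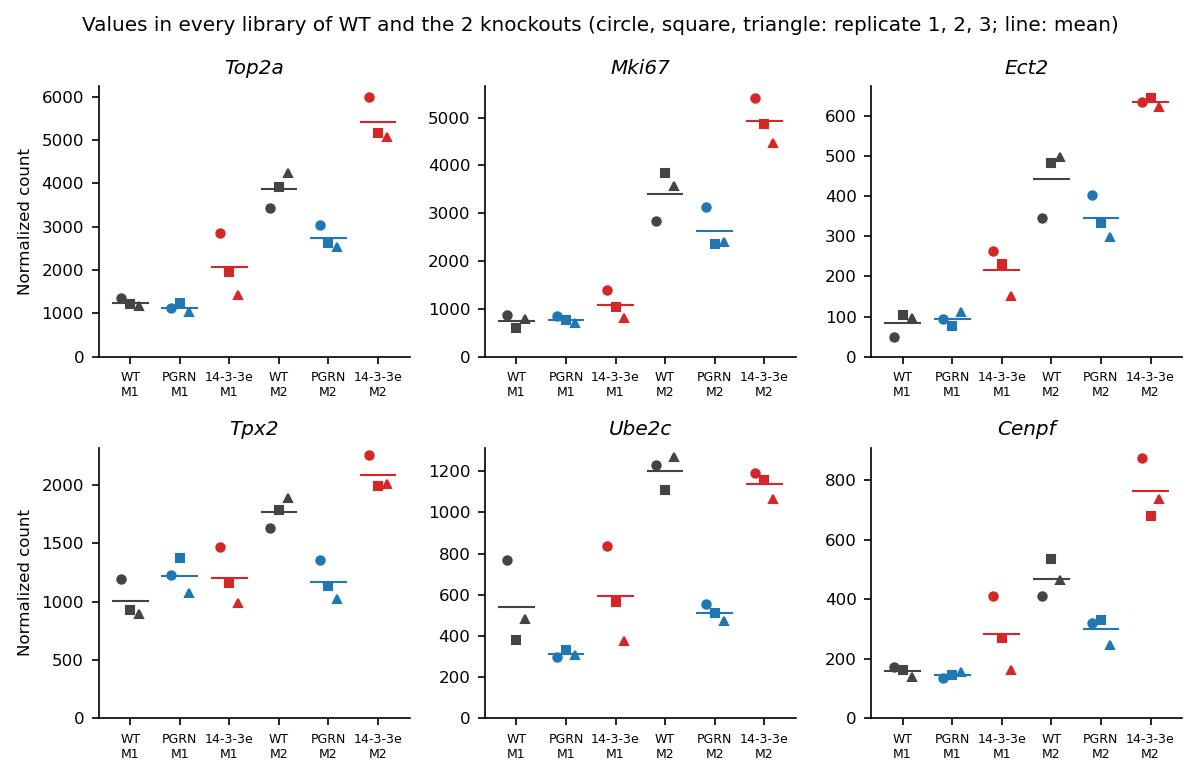
Normalized counts (y axis, each from 0) of 6 of the genes in all 18 libraries, by genotype and polarization (x axis). Points are libraries and lines are means of 3. Tpx2 is the panel in which the PGRN knockout M1 and M2 points overlap, and in each panel replicate 1 of the 14-3-3e knockout M1 group is the highest of its group.

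Per kb of exon (the summed length of all annotated exons of a gene), the mean level over all libraries ran from 22.9 normalized counts per kb for Cenpf to 351 for Cdc20. Cdc20, Ccnb2, Top2a and Tpx2 were the highest on this scale, and Cenpf, Ttk, Ndc80 and Ect2 the lowest. The spread between replicates, as the SD in percent of the mean, had a median over the 32 genes of 14.8% in WT M1, 9.33% in PGRN knockout M1, 32.6% in 14-3-3e knockout M1, 7.67% in WT M2, 9.03% in PGRN knockout M2 and 5.23% in 14-3-3e knockout M2. The 14-3-3e knockout M1 group stood out: its replicate 1 was the highest and its replicate 3 the lowest for 32 of 32 genes, and these were also its deepest (105 M reads) and shallowest (19.9 M reads) libraries. The comparisons of this group are therefore also given without each library and with all libraries thinned to the same depth.

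Exons of 8 of the genes overlap a gene on the opposite strand, and no source used here states whether counting used strand, so reads of each pair could be mixed. The neighbours with more than low levels are Elovl1 beside Cdc20 (mean 3439 normalized counts), Exosc9 beside Ccna2 (798), Kif20a's neighbour Cdc23 (757), Pdzd11 beside Kif4 (824), Rccd1 beside Prc1 (152) and Oip5 beside Nusap1 (87.9). For Ube2c, the neighbour Tnnc2 had a mean of 1.15, and no level is given here for Gm44985, the unclassified transcript beside Plk1.

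In WT, 32 of 32 genes were lower in M1 than in M2 past the threshold (limma, Benjamini-Hochberg adjusted p under 0.05 over all genes), where 38.9% of all genes passed in either direction and 20% passed as lower. The median log2 fold change was -1.71, against -0.04 over all genes, and for 31 genes the fall was over 2-fold. The 3 M1 and 3 M2 libraries did not overlap for 32 genes, against 40.2% of all genes. Ect2 fell most, by 5.42-fold, with a log2 fold change (± SE) of -2.44 ± 0.26 (adjusted p = 7.96e-07). Kif11, the tetrameric motor that pushes spindle poles apart, followed at -2.23 ± 0.17, then Mki67 at -2.19 ± 0.18 and Anln, the actin-binding scaffold of the cleavage furrow, at -2.15 ± 0.19. Tpx2 fell least, at -0.83 ± 0.15 (adjusted p = 2.06e-04). By class, the median log2 fold change was -1.98 for the midzone and cytokinesis genes, -1.85 for the spindle motors, -1.77 for the chromosome structure genes, -1.74 for the checkpoint genes, -1.60 for the kinases, cyclins and Foxm1, and -1.55 for the kinetochore genes.

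In PGRN knockout, 31 of 32 genes were lower in M1 than in M2, where 37.5% of all genes passed and 19.5% as lower, with a median log2 fold change of -1.20. The exception was Tpx2, at 0.06 ± 0.15 (adjusted p = 0.793) with a 95% interval of -0.24 to 0.37. Ect2 (-1.87 ± 0.26), Cenpa (-1.85 ± 0.21) and Mki67 (-1.75 ± 0.18) had the largest falls, and Aurka (-0.69 ± 0.16) and Ube2c (-0.71 ± 0.24) the smallest among genes that passed. In 14-3-3e knockout, 32 of 32 genes were lower in M1, where 30% of all genes passed and 14.4% as lower, with a median of -1.42. Mki67 fell most there, by 4.65-fold (-2.22 ± 0.18, adjusted p = 5.83e-08), ahead of Kif11 (-1.82 ± 0.17) and Kif23, the centralspindlin motor (-1.77 ± 0.19). Tpx2 again fell least (-0.81 ± 0.15). Libraries of M1 and M2 did not overlap for 31 genes in PGRN knockout and 32 in 14-3-3e knockout, against 51.3% and 49.3% of all genes.

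**Figure D3:**
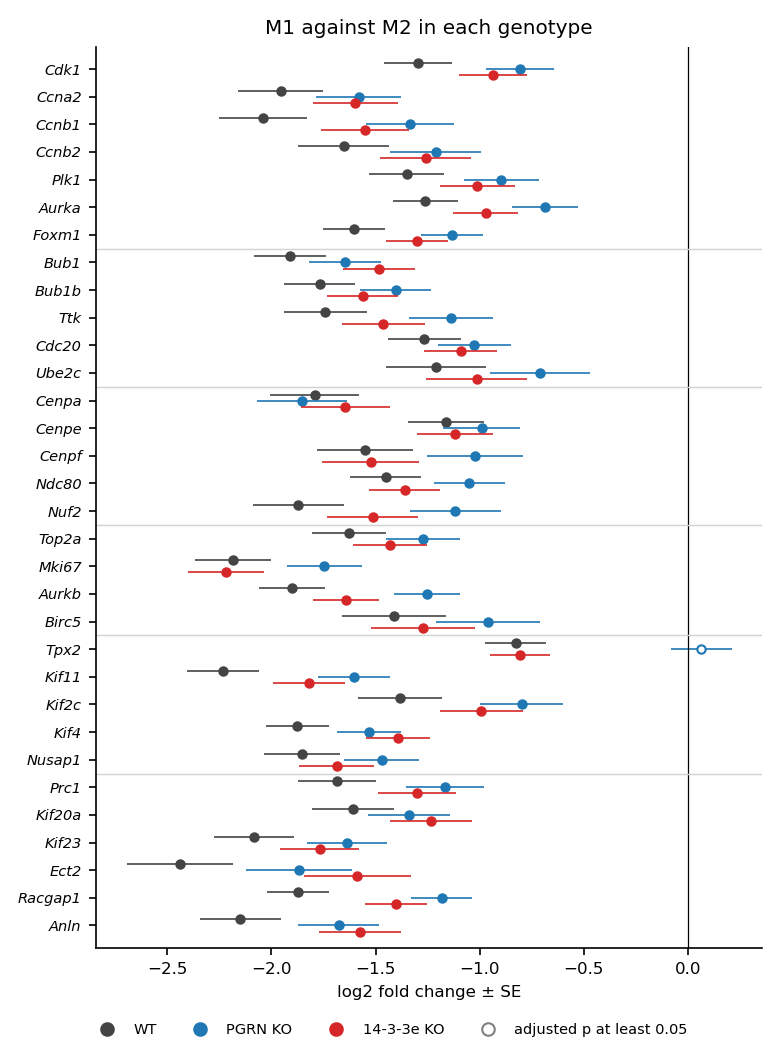
log2 fold change ± SE of M1 against M2 (x axis) for the 32 genes (y axis, grouped by role between grey lines) in WT, PGRN knockout and 14-3-3e knockout. Filled points passed the adjusted p of 0.05; the single open point is Tpx2 in PGRN knockout, at 0.06.

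The difference between polarizations was set against genotype by an interaction term, the knockout effect in M1 minus that in M2. For PGRN knockout, 1 of 32 genes passed, where 1.25% of all genes did (0.469% as higher and 0.783% as lower): Tpx2, at 0.89 ± 0.21 (adjusted p = 0.0437). Racgap1 came next (0.69 ± 0.21, adjusted p = 0.132), and 9 of the 32 genes had an unadjusted p under 0.05, as did 13.4% of all genes. The median of the interaction was 0.46, against 0.01 over all genes. Tpx2 passed narrowly. It missed the threshold in the fit of only the groups compared (adjusted p = 0.0722), with voom weights on recovered reads (0.0609) and without any single one of 10 of the 12 libraries involved, with the value between 0.80 and 1.02 over the libraries left out. Without WT M1 replicate 1 (adjusted p = 0.0139) or PGRN knockout M2 replicate 1 (0.0423) it passed. For 14-3-3e knockout, 0 of 32 genes passed by limma, where 0.286% of all genes did (0.141% as higher and 0.145% as lower); 3 had an unadjusted p under 0.05, as did 10.4% of all genes, and voom also called 0. Its median was 0.31 (0.06 over all genes). That median rests on the 14-3-3e knockout M1 libraries: it was 0.06 without replicate 1 (0.04 over all genes) and 0.53 without replicate 3. Ect2 had the largest value (0.85 ± 0.36, adjusted p = 0.421).

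In M2, the PGRN knockout had less of the mitotic transcripts than WT. Of the 32 genes 19 were lower and none higher, where 19.4% of all genes passed, 11.1% as higher and 8.3% as lower; all 32 log2 fold changes were below 0, with a median of -0.59 (0 over all genes), and libraries did not overlap for 29 (39.1% of all genes). Ube2c fell most, by 2.34-fold (-1.23 ± 0.24, adjusted p = 0.00199). Birc5 (-1.06 ± 0.25, adjusted p = 0.007) and Ccnb2, a cyclin B (-1.01 ± 0.22, adjusted p = 0.00364), also fell over 2-fold. Cdc20 followed (-0.88 ± 0.17), then Ccna2 (-0.82 ± 0.20), Plk1 (-0.81 ± 0.18) and Cdk1 (-0.80 ± 0.16). By class, 6 of 7 kinases, cyclins and Foxm1, 5 of 5 spindle motor and assembly genes, 2 of 5 checkpoint genes, 2 of 5 kinetochore genes, 2 of 4 chromosome structure genes and 2 of 6 midzone genes were lower. The smallest difference was that of Ect2 (-0.35 ± 0.26, adjusted p = 0.397), and Mki67 and Top2a did not pass (-0.38 ± 0.18 and -0.49 ± 0.18; adjusted p = 0.171 and 0.0628). The count was 12 without WT M2 replicate 3, 12 without PGRN knockout M2 replicate 2 and 11 without PGRN knockout M2 replicate 3.

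In M1, where the genes were already low, 2 of 32 were lower in PGRN knockout than in WT and none higher, where 25.3% of all genes passed, 14.2% as higher and 11.1% as lower. Those 2 were Ube2c (-0.73 ± 0.24, adjusted p = 0.0357) and Cdc20 (-0.64 ± 0.17, adjusted p = 0.0125). The median was -0.14 (0.01 over all genes), and libraries did not overlap for 7 genes, against 31.8% of all genes. Cenpa (-0.60 ± 0.21), Birc5 (-0.61 ± 0.25) and Ccnb2 (-0.57 ± 0.22) came next without passing, and Aurkb was nearest to 0, with a 95% interval of -0.34 to 0.33. Tpx2 was at 0.29 ± 0.15 (adjusted p = 0.162). Neither call held under every alternative. With voom 0 of the 32 genes passed, at adjusted p = 0.138 for Cdc20 and 0.170 for Ube2c, where 19.3% of all genes did, and in the fit of only these 2 groups Cdc20 passed (0.0242) and Ube2c did not (0.111). Cdc20 passed with each of the 6 libraries left out, at log2 fold changes of -0.74 to -0.58. Ube2c missed the threshold without any single one of 5 of them, with a log2 fold change of -0.45 without WT M1 replicate 1, and after thinning to the shallowest library (adjusted p = 0.143). The count was 5 without WT M1 replicate 2, where 29.9% of all genes passed. It was 1 without any single one of the other 5 libraries, where 18.2 to 25.6% of all genes did.

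In M1, 14-3-3e knockout had more of the mitotic transcripts than WT: 20 of 32 genes were higher and none lower, where 21.3% of all genes passed, 12% as higher and 9.31% as lower, with a median log2 fold change of 0.62 (0.07 over all genes). All 6 midzone and cytokinesis genes were among them, led by Ect2, 2.62-fold higher (1.39 ± 0.26, adjusted p = 0.00209), and Anln (1.09 ± 0.19, adjusted p = 0.00173). So were 4 of 7 kinases, cyclins and Foxm1, led by Ccnb1 (0.84 ± 0.21), 4 of 5 spindle motor and assembly genes, led by the chromokinesin Kif4 (0.82 ± 0.15), 3 of 5 checkpoint genes (Bub1, Bub1b and Ttk), 2 of 4 chromosome structure genes (Top2a and Aurkb) and 1 of 5 kinetochore genes (Cenpf, 0.73 ± 0.23). Birc5, Cenpa and Ube2c differed least (0.04 ± 0.25, 0.05 ± 0.21 and 0.11 ± 0.24). Libraries did not overlap for 14 genes, against 32.8% of all genes.

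This comparison rests on a group with a wide spread. Without 14-3-3e knockout M1 replicate 1 the count was 10 and the median 0.35, where 14.0% of all genes passed. Without replicate 2 the count was 12 (10.6% of all genes), and without replicate 3 it was 28 (14.8%) with a median of 0.85. With all libraries thinned to the depth of the shallowest, 12 genes passed with a median of 0.56, where 13.9% of all genes passed. In a fit of only these 2 groups 0 of the 32 passed by limma, where 1.80% of all genes did. The fit of all 6 groups shares their spread and gave 27 of the 32 an unadjusted p under 0.05, as it did 34.9% of all genes. Precision weights from voom on the recovered reads called 12, where 17.6% of all genes passed.

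In M2, 0 of 32 genes passed between 14-3-3e knockout and WT by limma, where 6.69% of all genes did (3.32% as higher and 3.37% as lower), although 28 of the log2 fold changes were above 0, with a median of 0.31 (0 over all genes). Of the 32, 11 had an unadjusted p under 0.05, against 23.3% of all genes. With voom 1 passed, where 9.68% of all genes did, and in the fit of only these 2 groups 10 passed, where 5.95% did. The largest was Cenpf (0.70 ± 0.23, adjusted p = 0.0821), then Ect2 (0.54 ± 0.26), Mki67 (0.54 ± 0.18, adjusted p = 0.0888), Anln (0.52 ± 0.19) and Top2a (0.48 ± 0.18). Birc5, Cenpa, Cdk1 and Ube2c were slightly below 0, from -0.10 to -0.08; the 95% interval of Ube2c, the nearest to 0, was -0.59 to 0.43. Libraries did not overlap for 25 genes, against 31.6% of all genes.

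**Figure D4:**
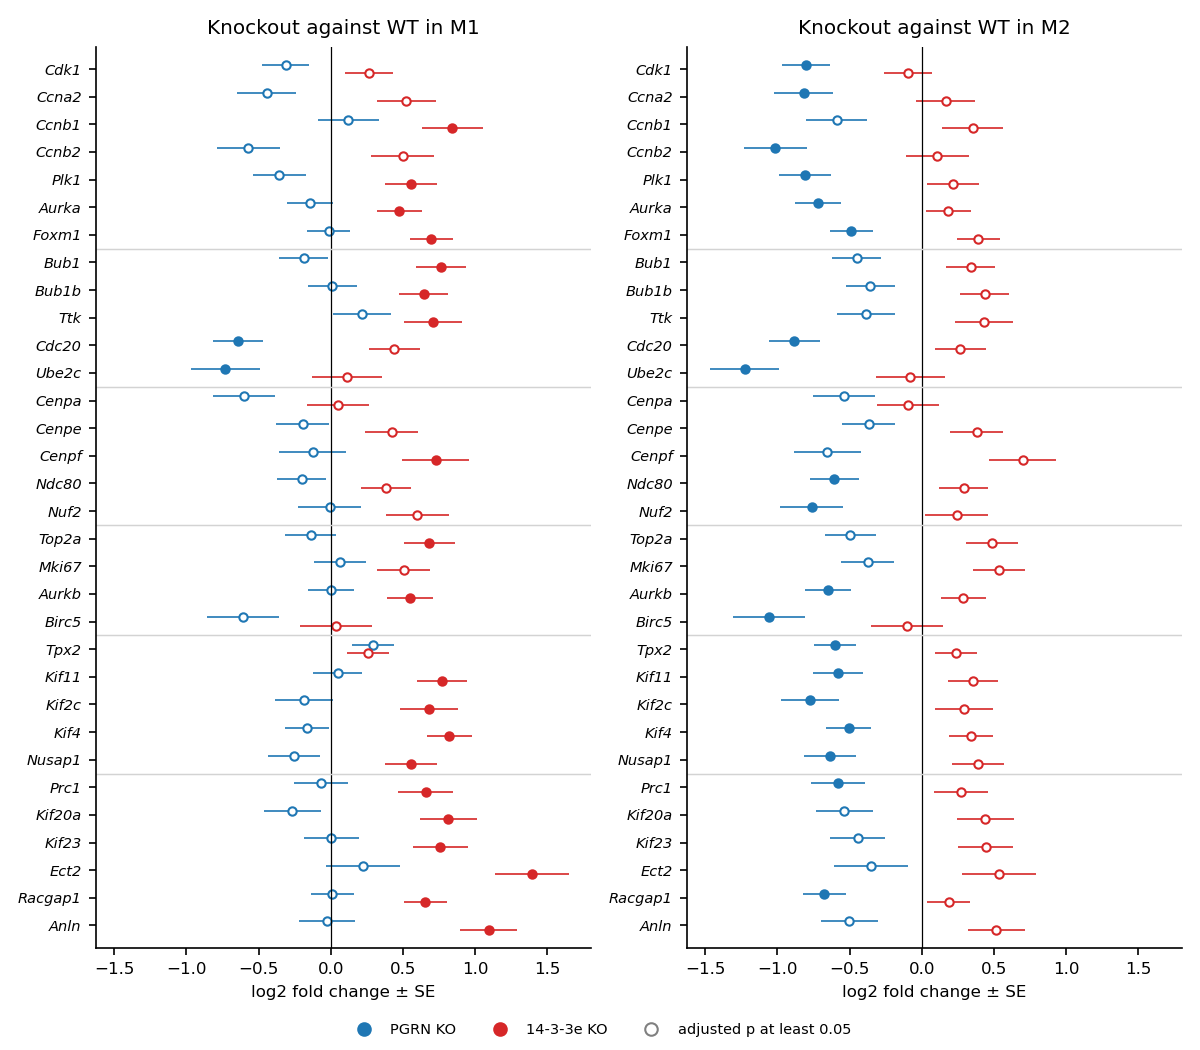
log2 fold change ± SE of each knockout against WT (x axis) for the 32 genes (y axis) in M1 (left) and M2 (right). Filled points passed the adjusted p of 0.05: 2 of PGRN knockout and 20 of 14-3-3e knockout in M1, and 19 and 0 in M2.

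The 2 knockouts were also set directly against each other. In M2, 31 of 32 genes were higher in 14-3-3e knockout than in PGRN knockout, where 18.2% of all genes passed, 8.29% as higher and 9.92% as lower, with a median of 0.92. Cenpf led (1.36 ± 0.23, adjusted p = 4.65e-04, 2.56-fold), followed by Cdc20 (1.15 ± 0.17), Ube2c (1.15 ± 0.24) and Ccnb2 (1.12 ± 0.22). Cenpa alone did not pass (0.44 ± 0.21, adjusted p = 0.193). Libraries did not overlap for 32 genes (39.5% of all genes). In M1, 27 were higher and none lower, where 25% of all genes passed and 12.5% as higher, with a median of 0.72; Ect2 (1.17 ± 0.26, adjusted p = 0.00272) and Anln (1.12 ± 0.19) led, and Birc5, Mki67, Nuf2, Tpx2 and Ttk did not pass. Tpx2 was nearest to 0 (-0.03 ± 0.15, 95% interval -0.34 to 0.28). Without 14-3-3e knockout M1 replicate 1 the M1 count was 18 and the median 0.48, where 19.9% of all genes passed. The comparisons with WT share the WT libraries, and this one shares the knockout libraries with them.

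Markers of other cells moved with polarization and with genotype. In WT M1 against M2, where 38.9% of all genes passed, 4 of 9 neutrophil and granulocyte precursor markers were lower and 1 higher. Mpo was at 66.9, 42.1 and 61.0 in WT M1 and at 1511, 577 and 377 in WT M2. S100a8, of the same list, was at 1480, 717 and 747 in WT M1 and at 994, 449 and 322 in WT M2. The median log2 fold change of the 9 was 0.27. Of 7 stromal markers, 2 were higher and 1 lower in WT M1, and 2 of 4 T and NK cell markers were higher. No stem and progenitor or B cell precursor marker passed there. Collagen transcripts took 1.76 to 2.48% of reads in 14-3-3e knockout M1, 0.887 to 1.80% in WT M1 and 0.831 to 0.899% in PGRN knockout M1. In M2 they took 1.64 to 2.33%, 1.13 to 1.79% and 0.722 to 0.909% in the same order. The normalized counts of all 7 stromal markers summed to 412294 to 561365, 230219 to 423301 and 213202 to 228033 in M1 and to 367882 to 496265, 302273 to 389700 and 178433 to 213637 in M2, again for 14-3-3e knockout, WT and PGRN knockout. The 8 macrophage markers summed in M2 to 68797 to 85743 in 14-3-3e knockout, 129265 to 158526 in WT and 279422 to 327333 in PGRN knockout. In M1 the sums were 190939 to 265399, 262325 to 437301 and 446749 to 541971. The sums of the 14-3-3e knockout depended on Lyz2, which encodes a lysozyme. The other 7 markers summed to 134753 to 158338 in 14-3-3e knockout M1, with WT at 89393 to 137588, and to 54464 to 60287 in 14-3-3e knockout M2, with WT at 50646 to 60208. In PGRN knockout these 7 summed to 141380 to 182166 (M1) and 70797 to 90514 (M2), above all WT libraries of the same state. Of the stromal markers, 1 of 7 fell in PGRN knockout M1, 3 of 7 fell in PGRN knockout M2 and 3 of 7 rose in 14-3-3e knockout M1, each against WT. For these and the marker counts below, 25.3% of all genes passed against WT in PGRN knockout M1 and 19.4% in PGRN knockout M2. The shares were 21.3% in 14-3-3e knockout M1 and 6.69% in 14-3-3e knockout M2. Within 14-3-3e knockout M1, replicate 1, with the highest mitotic sum, had the lowest collagen share (1.76%), and replicate 3 the highest (2.48%). Other lineages differed from collagen there. For replicates 1, 2 and 3, Cd34 was at 2123, 1081 and 1148, Kit at 274, 124 and 139 and Mpo at 395, 161 and 208. The B cell precursor marker Cd79a was at 95.6, 17.1 and 38.1, while another, Vpreb1, was highest in replicate 3 (4.44, 2.01 and 9.52). Cd34 was highest in the library with the highest mitotic sum also in WT M1 (1315, 793 and 613) and 14-3-3e knockout M2 (1797, 1078 and 1007). In PGRN knockout it was not, at 1013, 1773 and 976 in M1 and 1131, 2228 and 1353 in M2. In WT M2 (1336, 631 and 504) Cd34 was highest in the library with the lowest mitotic sum. Among the macrophage markers themselves, 4 of 8 rose and 1 fell in PGRN knockout M1 and 4 rose in PGRN knockout M2, while 2 rose and 3 fell in 14-3-3e knockout M1 (median 0.29) and 1 fell in 14-3-3e knockout M2 (Lyz2, -2.24 ± 0.45; median of the list -0.04). Kit, Cd34, Flt3 and Gata2, markers of stem and progenitor cells, summed to 744 to 1598 in WT libraries, 1156 to 2594 in PGRN knockout and 1206 to 2497 in 14-3-3e knockout, and of the 4 only Flt3 passed against WT, in 14-3-3e knockout M2 (2.27 ± 0.60, adjusted p = 0.0347). Of 9 neutrophil and granulocyte precursor markers, 1 rose in 14-3-3e knockout M1 (Mpo, 2.07 ± 0.62) and 1 fell in PGRN knockout M1. The 5 B cell precursor markers summed to 487 to 605 in PGRN knockout M1, below the 835 to 1181 of WT M1, and 1 of them fell there, Ebf1 (-0.88 ± 0.14); in M2 the sums were 548 to 774 and 760 to 945. The T and NK cell markers summed to at most 40.1 in any library. The part of stromal, progenitor, granulocyte precursor or B lineage cells in the mitotic gene differences between genotypes or polarizations was not tested.

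Among the 32 genes, the knockout differences varied with exon length, the summed length of all annotated exons of a gene. In PGRN knockout M2 against WT, the Spearman correlation of exon length with log2 fold change was 0.56 across the 32 genes and 0.23 across 21121 genes of all kinds; in 14-3-3e knockout M2 it was 0.54 and 0.28. In M1 the values were 0.44 and 0.14 for PGRN knockout and 0.32 and 0.17 for 14-3-3e knockout. These are correlations across genes measured in the same libraries, given as a description. The 16 genes with the shorter exons had a median of -0.68 in PGRN knockout M2 and the 16 longer ones -0.52, and in 14-3-3e knockout M2 the medians were 0.28 and 0.37. With the length trend of each library removed, 25 genes were lower in PGRN knockout M2, 17 were higher in 14-3-3e knockout M1 and 0 passed in 14-3-3e knockout M2. Split by promoter letters, in PGRN knockout M2 the median was -0.58 for the 22 genes with CHR letters and -0.64 for the 5 without, and in WT M1 against M2 it was -1.71 and -1.85.

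**Figure D5:**
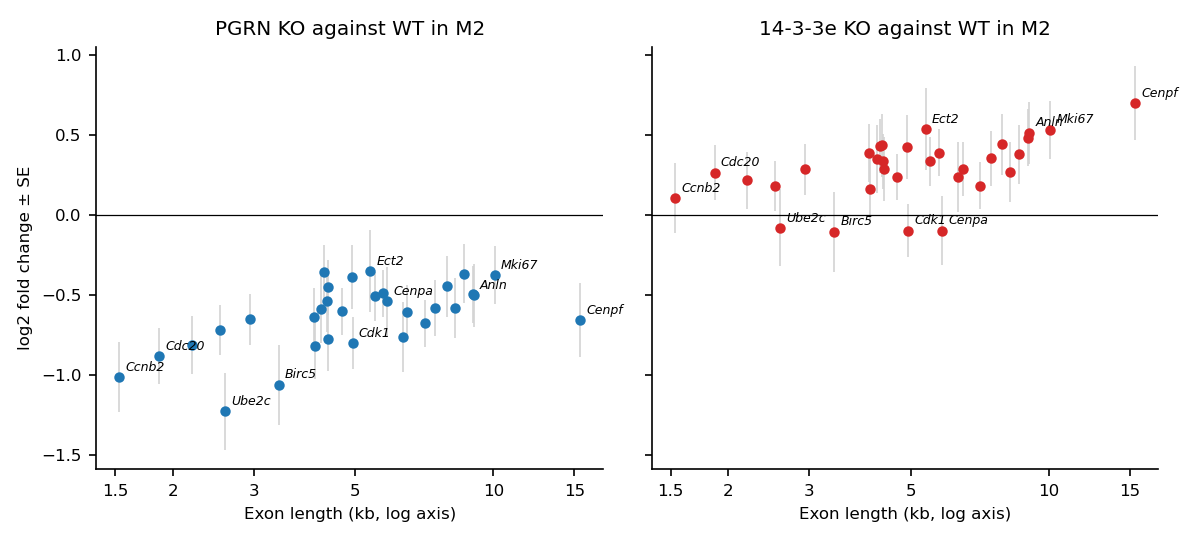
log2 fold change ± SE (y axis) against exon length in kb (x axis, log scale) for the 32 genes in PGRN knockout (left) and 14-3-3e knockout (right) against WT, both in M2. Short genes such as Ccnb2 and Ube2c lie low in both panels, and the Spearman correlations across genes are 0.56 and 0.54.

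The wider mitotic programme was followed in 46 other mitotic genes. These and the lists below were drawn up with the earlier results known. In WT, where 38.9% of all genes passed, 43 were lower in M1 and 2 higher, with a median of -1.55, and the counts were 42 and 2 in PGRN knockout and 43 and 2 in 14-3-3e knockout. The 2 higher genes in WT were Pttg1, which encodes securin, the inhibitor of the cohesin-cutting protease separase, and Zwint, a kinetochore protein. Pttg1 was at 2988, 1486 and 1639.7 normalized counts in M1 cells of WT, 1434, 1663 and 1505 in those of the PGRN knockout and 1073, 1124 and 1089 in those of the 14-3-3e knockout. In M2 it was at 327, 273 and 309 (WT), 259, 271 and 254 (PGRN knockout) and 245, 263 and 245 (14-3-3e knockout), so that all 9 M1 libraries were above all 9 M2 libraries. Its log2 fold change was 2.68 ± 0.17 (adjusted p = 1.80e-09) in WT, 2.55 ± 0.17 in PGRN knockout and 2.12 ± 0.17 in 14-3-3e knockout, opposite in sign to those of its partners in anaphase, Cdc20 and Ube2c. Zwint rose by less, at 0.33 ± 0.07 (adjusted p = 8.98e-04) in WT. Against WT, 25 of the 46 were lower in PGRN knockout M2 and none higher (19.4% of all genes passed), with the smallest p for Ckap2 (-1.11 ± 0.18) and Spc24 (-1.08 ± 0.19), and 17 were higher in 14-3-3e knockout M1 (21.3% of all genes passed), with the smallest p for Sgo2a, a protector of centromeric cohesin (1.17 ± 0.18). The 1 that was lower was Pttg1 (-0.82 ± 0.17). In 14-3-3e knockout M2, 1 passed, the condensin gene Smc4 (0.41 ± 0.10, adjusted p = 0.0214).

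Of 14 constitutive subunits and regulators of the anaphase-promoting complex, 6 were lower and 2 higher in WT M1 (38.9% of all genes passed), with a median of -0.17, and the inhibitor Fbxo5 fell most (-1.58 ± 0.23). The 24 replication genes were lower in WT M1 for 23, with the smallest p for Rrm1 (-1.29 ± 0.07) and Mcm2 (-1.72 ± 0.11), with a median of -1.45. In PGRN knockout M2, 8 of them were lower than in WT, where 19.4% of all genes passed in either direction, among them Rrm1 (-0.54 ± 0.07), Tyms (-0.69 ± 0.13), Rrm2 (-0.63 ± 0.14) and Tk1 (-0.70 ± 0.16), which make deoxynucleotides. In 14-3-3e knockout M1, 8 were higher and 2 lower, where 21.3% of all genes passed, with Tyms at 0.87 ± 0.13 and Ccne2, a cyclin E, at 1.08 ± 0.17. In 14-3-3e knockout M2, 1 was higher (Tyms, 0.69 ± 0.13) and 1 lower (Pcna, -0.33 ± 0.09), where 6.69% of all genes passed.

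Upstream regulators were mixed, and the shares of all genes that passed in the same comparisons were 38.9% for WT M1 against M2, 25.3% and 19.4% for PGRN knockout against WT in M1 and M2, and 21.3% for 14-3-3e knockout against WT in M1. Of 16 E2F, pocket protein and MuvB-MYB genes, 11 were lower and 1 higher in WT M1, led by E2f2 (-2.43 ± 0.18), E2f8 (-2.07 ± 0.17), Mybl2, which encodes B-MYB (-1.93 ± 0.20), and E2f7 (-1.94 ± 0.22). Against WT, 6 were higher in PGRN knockout M1, 1 was lower in PGRN knockout M2 (E2f2, -0.83 ± 0.18), and 3 were higher and 1 lower in 14-3-3e knockout M1 (E2f7 1.05 ± 0.22, E2f8 0.74 ± 0.17, Lin54 0.58 ± 0.18 and Lin37 -0.46 ± 0.13). Of 7 CDK inhibitor genes, 2 were higher (Cdkn2b 0.61 ± 0.18, Cdkn1b 0.35 ± 0.09) and 2 lower (Cdkn2c -1.33 ± 0.15, Cdkn1c -1.21 ± 0.28) in WT M1. In PGRN knockout M2, 5 of the 7 were lower than in WT, among them Cdkn2c (-0.81 ± 0.15) and Cdkn1a (-0.59 ± 0.13), and Cdkn1c was higher (1.78 ± 0.28). Of the 6 G1 cyclins and kinases, Ccnd3 was higher (1.12 ± 0.09) and 4 were lower in WT M1, led by Ccnd1 (-1.40 ± 0.15), and 3 were lower in PGRN knockout M2. Of 6 genes of M-CSF signalling and self-renewal, 3 were lower in WT M1, among them Klf4 (-3.33 ± 0.19) and Myc (-1.50 ± 0.12), and Maf was higher (1.40 ± 0.11). Myc and Klf4 were also lower in PGRN knockout M2 than in WT (-0.35 ± 0.12 and -0.87 ± 0.19) and higher in 14-3-3e knockout M1 (0.50 ± 0.12 and 0.84 ± 0.19).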

How the data were processed

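The authors deposited 1 table of log2 values per gene and library. On inspection each value is log2 of a normalized count to which 1 was added. Per the submitters' processing notes, STAR, RSEM 1.3.1, DESeq2 and the build GRCh38 were named. The gene IDs are those of mouse, so that build was not used. In every library 100% of values returned whole reads to within 0.1 of a read, which gave the depth.

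limma 3.58.1 (R 4.3.3, with an intensity trend and robust moderation) was fitted to the log2 values as deposited, all 6 groups in 1 model with 11 comparisons. The 21336 genes tested reached 1 normalized count in 3 or more libraries. Fold changes are on the log2(count + 1) scale, and p was adjusted by Benjamini-Hochberg over all genes, with a threshold of 0.05. The limma fit was tested on simulated counts for WT M1 against M2 and for PGRN knockout against WT in M2, with the same dispersion in all groups. The interactions and the alternatives were not tested in this way. The 32 genes, the other lists and the rule for named genes were chosen with earlier results of these data known. By that rule, library values are given for the gene with the highest mean count in each class, for the largest and smallest difference in each comparison of states or with WT, and for genes past the threshold in an interaction. Of the other lists, up to 4 genes with the smallest p per comparison are named. Further genes were named after their values were seen. Positions and exon lengths come from GENCODE M21.

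Alternatives were pseudocounts of 0.1 and 5, no filter, a filter at 50 normalized counts, fits of only the groups compared, a block for replicate number, leaving out each library, equal library totals, thinning to the shallowest library (seed 1) and voom weights on recovered reads. After seeing the data, 2 more were added: removing each library's length trend, and omitting the 2 libraries with high ribosomal RNA-like content. Same-numbered libraries deviated together in every pair only between M1 and M2 of the 14-3-3e knockout (r = 0.52, 0.37 and 0.41). Python 3.11.15, numpy 2.4.6, pandas 2.3.3 and matplotlib 3.10.9 prepared tables and figures.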

Additional observations from a re-analysis of the deposited data

Results flagged for a closer look

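Tpx2 was the only gene of the 32 for which the test of the difference between polarizations passed for a knockout effect. The PGRN knockout effect on Tpx2 was 0.89 higher (log2, SE 0.21, limma adjusted p = 0.0437) in M1 than in M2: the knockout was at 0.29 against WT in M1 and at -0.60 in M2. The interaction's 95% interval was 0.45 to 1.33. Over all alternatives the value lay between 0.77 and 1.02, and the adjusted p between 0.0139 and 0.13.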

How the results depend on the processing

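No count of genes past the threshold changed direction under any alternative. With each library left out, the count for M1 against M2 stayed at 32 in WT (34.0 to 41.9% of all genes) and in 14-3-3e knockout (25.3 to 26.0%). In PGRN knockout it was 30 to 31 (32.7 to 34.7%).

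Percentages in brackets are the shares of all genes that passed in the same setting. PGRN knockout against WT in M1 (2 genes, 25.3%) gave 4 with the filter at 50 (41.1%), 1 in the fit of only the groups compared (10.0%) and 0 with voom (19.3%). It gave 5 with equal library totals (21.9%) and 5 when the 2 libraries with high ribosomal RNA-like content were omitted (30.1%). With each library left out it gave 1 to 5 (18.2 to 29.9%). In M2 (19 genes, 19.4%) this comparison gave 28 in the fit of only the groups compared (21.8%), 25 with voom (24.8%) and 25 with the length trend removed (18.1%). It gave 23 with the filter at 50 (36.0%), 21 with equal library totals (17.5%) and 17 after thinning (16.1%). Without those 2 libraries it gave 12 (19.5%), and with each library left out 11 to 17 (12.9 to 17.5%). 14-3-3e knockout against WT in M1 (20 genes, 21.3%) gave 0 with only the groups compared (1.80%), 12 with voom (17.6%) and 12 after thinning (13.9%). With each library left out it gave 10 to 28 (10.6 to 30.3%). In M2 (0 genes, 6.69%) the same knockout gave 10 with only the groups compared (5.95%), 1 with voom (9.68%) and 4 with equal library totals (7.25%). With each library left out it gave 0 (2.70 to 7.73%). The knockouts against each other in M1 (27 genes, 25.0%) gave 15 with only the groups compared (29.3%) and 18 to 31 with each library left out (19.3 to 22.3%). In M2 they gave 29 to 31 with each library left out (13.1 to 16.9%). The PGRN knockout interaction (1 gene, 1.25%) gave 0 without a filter (0.934%), with only the groups compared (0.436%) and after thinning (0.685%). It also gave 0 with voom (0.980%), with equal library totals (0.948%) and without the 2 libraries. With each library left out it gave 0 to 1 (0.469 to 3.09%). The 14-3-3e knockout interaction stayed at 0. The causes were not tested.

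Equal library totals moved the median log2 fold change of all genes in M1 against M2 from -0.04 to -0.19 in WT, -0.04 to -0.22 in PGRN knockout and 0.03 to -0.16 in 14-3-3e knockout, and that of the 32 genes from -1.71 to -1.89, -1.20 to -1.42 and -1.42 to -1.64. For 14-3-3e knockout in M2 against WT, the 2 medians moved from 0 to 0.11 and from 0.31 to 0.44. With the replicate number as a block, the counts for M1 against M2 were 32 in WT (39.3% of all genes), 31 in PGRN knockout (38.0%) and 32 in 14-3-3e knockout (30.5%). Against WT, PGRN knockout gave 3 in M1 (25.8%) and 23 in M2 (20.4%), and 14-3-3e knockout gave 22 (22.1%) and 0 (7.57%). The knockouts against each other gave 29 in M1 (25.5%) and 31 in M2 (18.7%). The interactions gave 1 for PGRN knockout (1.32%) and 0 for 14-3-3e knockout. Between M1 and M2, same-numbered libraries had r of 0.13, 0.34 and -0.06 in PGRN knockout and of 0.38, -0.14 and -0.42 in WT. The labels do not say whether such libraries share marrow. The block takes the same replicate effect for all genotypes, so a pairing within a genotype was not tested. The block moved no count by 1.5 times or more except that of PGRN knockout against WT in M1. Depth limits the WT M1 group most, where the lowest gene had 11 reads.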
